A study of Mus musculus with 32 samples.

Results

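The libraries compared here come from whole femur marrow of control mice that received diphtheria toxin (DT) for 2 days or for 1 day. They were chosen by title, 4 libraries of control mice with DT for 2 days and 4 of control mice with DT for 1 day, which makes 8 of the 32 libraries of the series. The question is what a second daily injection changes in mice that lack Cre. The study's other libraries hold controls without DT, controls with DT for 3 days, and DTRADQ mice, the littermates in which adiponectin-Cre switches on the toxin receptor, on the same schedule. All mice were on the C57BL/6 background and 2 months old, with 4 mice per group per the series' design text. Both control groups carry the genotype written "DTR flox, No Cre", and each injection into the abdomen held 100 ng of DT per mouse. By these labels the groups share the floxed receptor allele and the toxin and differ in the number of daily injections, and the days since the first injection cannot be told apart from the number of injections. The labels name no group injected with vehicle, and the sources used here give neither the hour of harvest nor the time from the last injection. They also do not say what a replicate number stands for, so the p-values measure the spread between libraries. In the gene tests this spread was taken over all 8 groups of the series.

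Diphtheria toxin enters a cell through the toxin receptor, the membrane form of heparin-binding EGF-like growth factor, and stops protein synthesis by modifying diphthamide, a changed histidine on elongation factor 2. The mouse receptor binds the toxin poorly, and in iDTR mice a primate receptor sits in the ROSA26 locus behind a stop cassette that Cre removes. A Cre-negative littermate is therefore the usual control for toxin effects that do not need the receptor. In marrow, adiponectin-Cre marks adipocytes and the stromal cells that make Cxcl12 and stem cell factor.

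Library totals ran from 12.4 to 15.1 M counts on day 1 and from 12.8 to 14.5 M on day 2, with 13.8 ± 1.19 M and 13.6 ± 0.681 M (mean ± SD, n = 4 each; two-sided exact permutation p = 0.857). Mitochondrial genes took 2.08 ± 0.271% and 2.15 ± 0.231% of counts (exact permutation p = 0.8). The 10 most abundant genes took 22.0 ± 0.0852% and 20.5 ± 1.27% (exact permutation p = 0.0571, adjusted over 4 such measures 0.114). The markers of marrow were present in every library of both groups: the beta globin gene Hbb-bs lay between 27390 and 51910 CPM (the deposited counts scaled to library size, with TMM), the promyelocyte protease gene Elane between 917 and 1468 CPM, and the stromal chemokine gene Cxcl12 between 269.7 and 530.1 CPM. Of the cartilage markers, Acan was at 0 in 7 of the 8 libraries and Col2a1 stayed at or below 0.487 CPM. In bulk marrow, fewer cells of a type and less RNA per cell cannot be told apart.

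Some libraries stood apart from others with the same labels, and they did so across both days. Gt(ROSA)26Sor, the noncoding transcript of the locus that holds the iDTR allele (ENSMUSG00000086429, chromosome 6, 113067428 to 113077333 in GRCm38), lay at 2.08, 2.68, 55.4 and 74.2 CPM in replicates 1 to 4 of day 1 and at 26.4, 3.3, 78.2 and 60.4 CPM on day 2. Low and high values thus occurred in both groups, although the labels give all 8 mice the same genotype, without the number of copies of the allele. Whether the 8 mice carry the same number of copies was not tested. The other control libraries were mixed as well, with 2.85, 43.5, 54.4 and 19.4 CPM without DT and 2.82, 2.68, 3.75 and 72.4 CPM on day 3, while 15 of the 16 DTRADQ libraries lay between 2.06 and 4.24 CPM and the other at 29.1 CPM. Exons of this gene overlap Thumpd3 on the other strand, and the sources used here do not give the strand setting of the counting.

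Genes of antibody-secreting cells divided the same 8 libraries by replicate number. Igha, the constant region of IgA (ENSMUSG00000095079), lay at 832.5, 908, 129 and 67.7 CPM on day 1 and at 533.5, 552, 89.1 and 52.2 CPM on day 2. Jchain, which joins the units of IgA and IgM, lay at 571, 577, 79.5 and 91.6 CPM and then at 336, 345, 82.2 and 84.0 CPM. Ighg2c fell between 55.6 and 117 CPM in replicates 1 and 2 of both days and between 0.998 and 2.51 CPM in replicates 3 and 4. Within each day, replicates 1 and 2 were the high ones for these 3 genes. The first principal component of the 8 libraries (28.2% of the variance) also placed replicates 1 and 2 on the negative side and replicates 3 and 4 on the positive side on both days. Of 11355 genes whose mean log2 CPM reached 1, 40 varied within the groups with an SD of at least 1 on the log2 scale, against a median SD of 0.191, and 24 of the 40 were immunoglobulin genes or Jchain, against 0.916% of all. What sets these libraries apart was not tested. For the step from day 1 to day 2 in controls, the count of genes past the threshold was also made with replicates 1 and 2 alone and with replicates 3 and 4 alone.

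**Figure D1:**
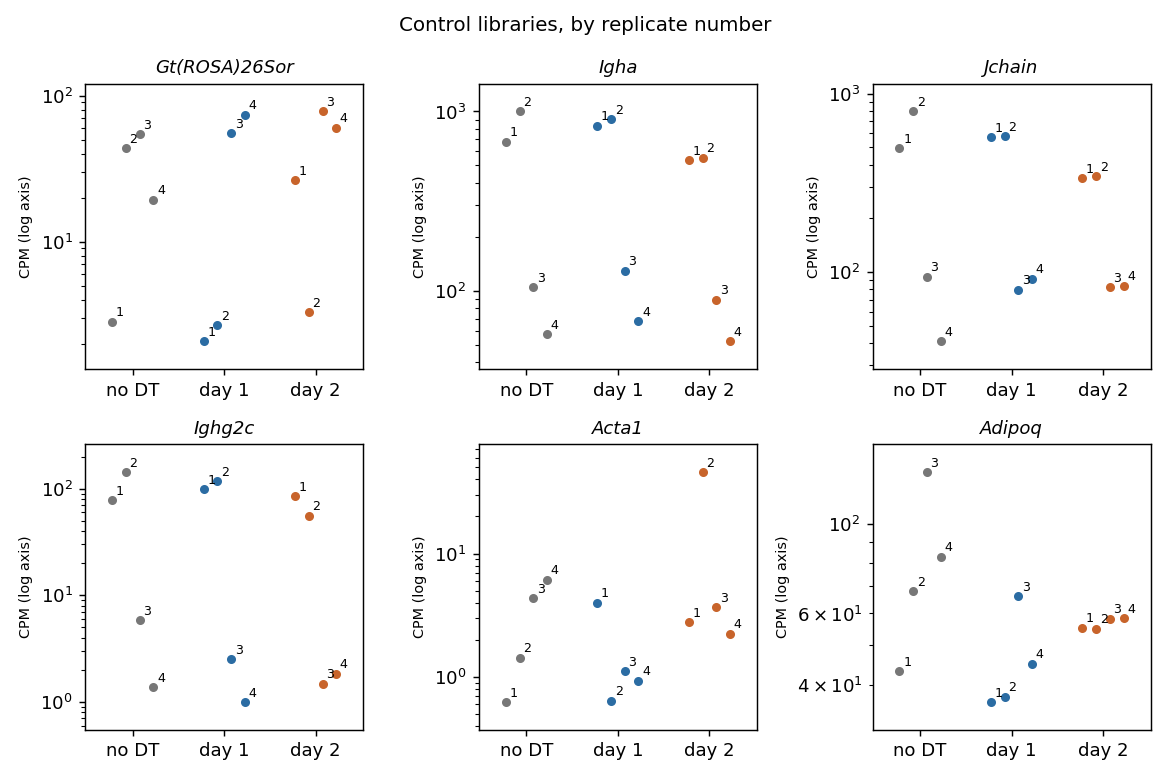
CPM (log axis) of 6 genes in each control library without DT, on day 1 and on day 2, with the replicate number beside each point. Igha, Jchain and Ighg2c are high in replicates 1 and 2 of both days, Gt(ROSA)26Sor is low in replicates 1 and 2 of day 1 and replicate 2 of day 2, Acta1 reaches 45.9 CPM in replicate 2 of day 2, and the 4 day 2 values of Adipoq lie within 55.0 to 58.5 CPM.

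No gene passed the threshold between day 2 and day 1. Of 14527 genes tested with edgeR's quasi-likelihood test, 0 had a Benjamini-Hochberg adjusted p below 0.05 (0%), and the smallest adjusted p was 1. At an unadjusted p below 0.05 there were 332 genes (2.29%), 221 of them higher on day 2 (1.52%) and 111 lower (0.764%). Evenly spread p-values would put a share of 0.05 of the genes below that level, more than the main fit gave. DESeq2 called 0 genes with 357 at an unadjusted p below 0.05, and limma's voom with library weights called 0 with 864. The main fit took the spread of each gene over all 8 groups. With the compared groups alone, edgeR called 0 of 13458 genes, with 625 at an unadjusted p below 0.05. Without replicates 3 and 4 of the controls without DT it called 0 of 15044, with 655 at that level. The count was 0 with replicates 1 and 2 alone (372 at an unadjusted p below 0.05) and with replicates 3 and 4 alone (182). The 4 day 2 libraries lay wholly outside the 4 day 1 libraries for 421 genes (2.9%), 252 of them above (1.73%) and 169 below (1.16%). With no difference between the days, 4 against 4 libraries separate fully with a probability of 0.0286. The 2.9% lies near that share, so separation alone marks no change in a gene. Across pairs of libraries, the correlation of log2 CPM had a median of 0.983 for the 12 pairs of the same day and 0.982 for the 16 pairs of different days.

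A missed threshold does not show that the days were alike, and the intervals say how large a difference the main fit leaves room for. They rest on the spread over all 8 groups, the controls without DT included, and not on the compared libraries alone. The median half-width of a 95% interval of the log2 change was 0.43. For 11857 genes (81.6%) the whole interval lay within a 2-fold difference in either direction, and for 7693 (53%) within a 1.5-fold difference. The share within 2-fold was 30.5% at a mean log2 CPM under 1, 92.3% between 1 and 4, 98.9% between 4 and 7, and 98.7% from 7 upward. Within 1.5-fold the share was 85.9% between 4 and 7 and lower, at 72.1%, from 7 upward. Of the 125 genes with a fitted log2 change beyond 1 in size, 120 had a mean log2 CPM under 1.

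**Figure D2:**
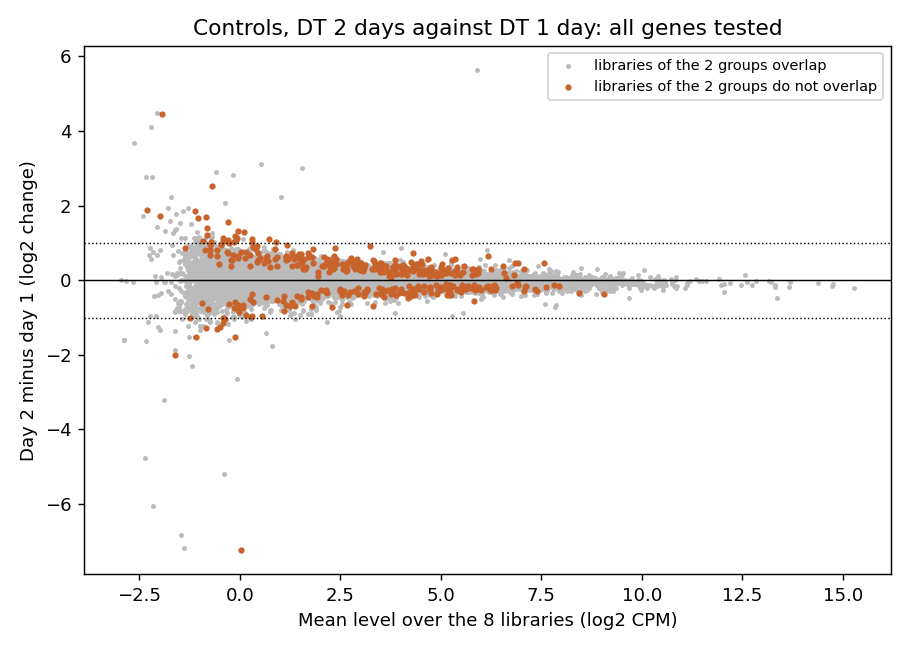
Log2 change from day 1 to day 2 in controls against the mean level over the 8 libraries (log2 CPM), 1 point per gene tested, with dotted lines at a 2-fold difference. Orange points are the 421 genes whose libraries do not overlap between the days, and none of the 14527 genes passed the threshold.

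Genes that the toxin acts through in the cell gave no call, with narrow intervals. The list holds elongation factor 2 and the enzymes of diphthamide synthesis; 12 of its 12 genes were tested, 0 passed, 1 had an unadjusted p below 0.05, and all 12 intervals lay within 2-fold (median log2 change −0.01, against 0.00059 over all genes). Eef2, elongation factor 2 itself (ENSMUSG00000034994), lay at 599, 842, 886 and 743 CPM on day 1 and at 642, 687, 663 and 806.5 CPM on day 2, a log2 change of −0.13 with a 95% interval from −0.44 to 0.17. Dph6, the enzyme of the last step of diphthamide synthesis, lay at 14.5, 16.6, 19.1 and 16.6 CPM and then at 14.7, 10.4, 15.2 and 13.3 CPM. Its groups overlapped, with a log2 change of −0.32 (SE 0.13, unadjusted p = 0.0243, edgeR's quasi-likelihood adjusted p = 1) and −0.22 without replicate 2 of day 2. Hbegf, the mouse gene for the growth factor that serves as the receptor, was below 1.3 CPM in all 8 libraries and had a log2 change of 0.08 with an interval from −0.81 to 0.98.

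Genes of the adiponectin lineage, the cells that Cre would target, gave no call between the days. Of 29 stromal genes tested, 0 passed and 0 had an unadjusted p below 0.05. Their median log2 change was 0.04, and 26 of the 29 intervals lay within 2-fold. Adipoq, the adiponectin gene (ENSMUSG00000022878, chromosome 16, 23146536 to 23158028), lay at 36.2, 37.4, 66.3 and 45.1 CPM on day 1 and at 55.4, 55.0, 58.2 and 58.5 CPM on day 2. The day 2 libraries were close together and lay inside the day 1 range, with a log2 change of 0.30 (interval −0.21 to 0.80). Cxcl12, the chemokine that retains stem cells and B cell precursors (ENSMUSG00000061353), lay at 270, 350, 530 and 404 CPM and then at 372, 399, 449 and 379.5 CPM. Its log2 change was 0.04 (interval −0.31 to 0.40), and that of Lepr, the leptin receptor, was −0.06 (interval −0.49 to 0.37). Kitl, stem cell factor, had a log2 change of −0.26 (interval −0.64 to 0.13), and Vcam1, the adhesion molecule shared by stroma and macrophages, −0.36 (interval −0.78 to 0.05). Igfbp5, a binding protein of insulin-like growth factors, lay between 44.6 and 64.0 CPM in 7 libraries and at 104 CPM in replicate 1 of day 2. The BMP antagonists Chrdl1 and Grem1 had log2 changes of 0.04 and 0.05, with intervals from −0.37 to 0.45 and from −0.54 to 0.64.

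Over 46 gene lists of cell types, signalling and metabolism, 778 genes were tested, 0 passed and 20 had an unadjusted p below 0.05. That share is close to the 2.29% of all genes tested. The list medians of the log2 change ran from −0.20 (marrow macrophage) to 1.85 (skeletal muscle), and 45 of the 46 lay within 0.3 of 0. Over all genes tested 7289 lay above 0 and 7237 below. For 35 lists the sign of the median changed under at least 1 alternative setting, and their values are given with no direction read from them.

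**Figure D3:**
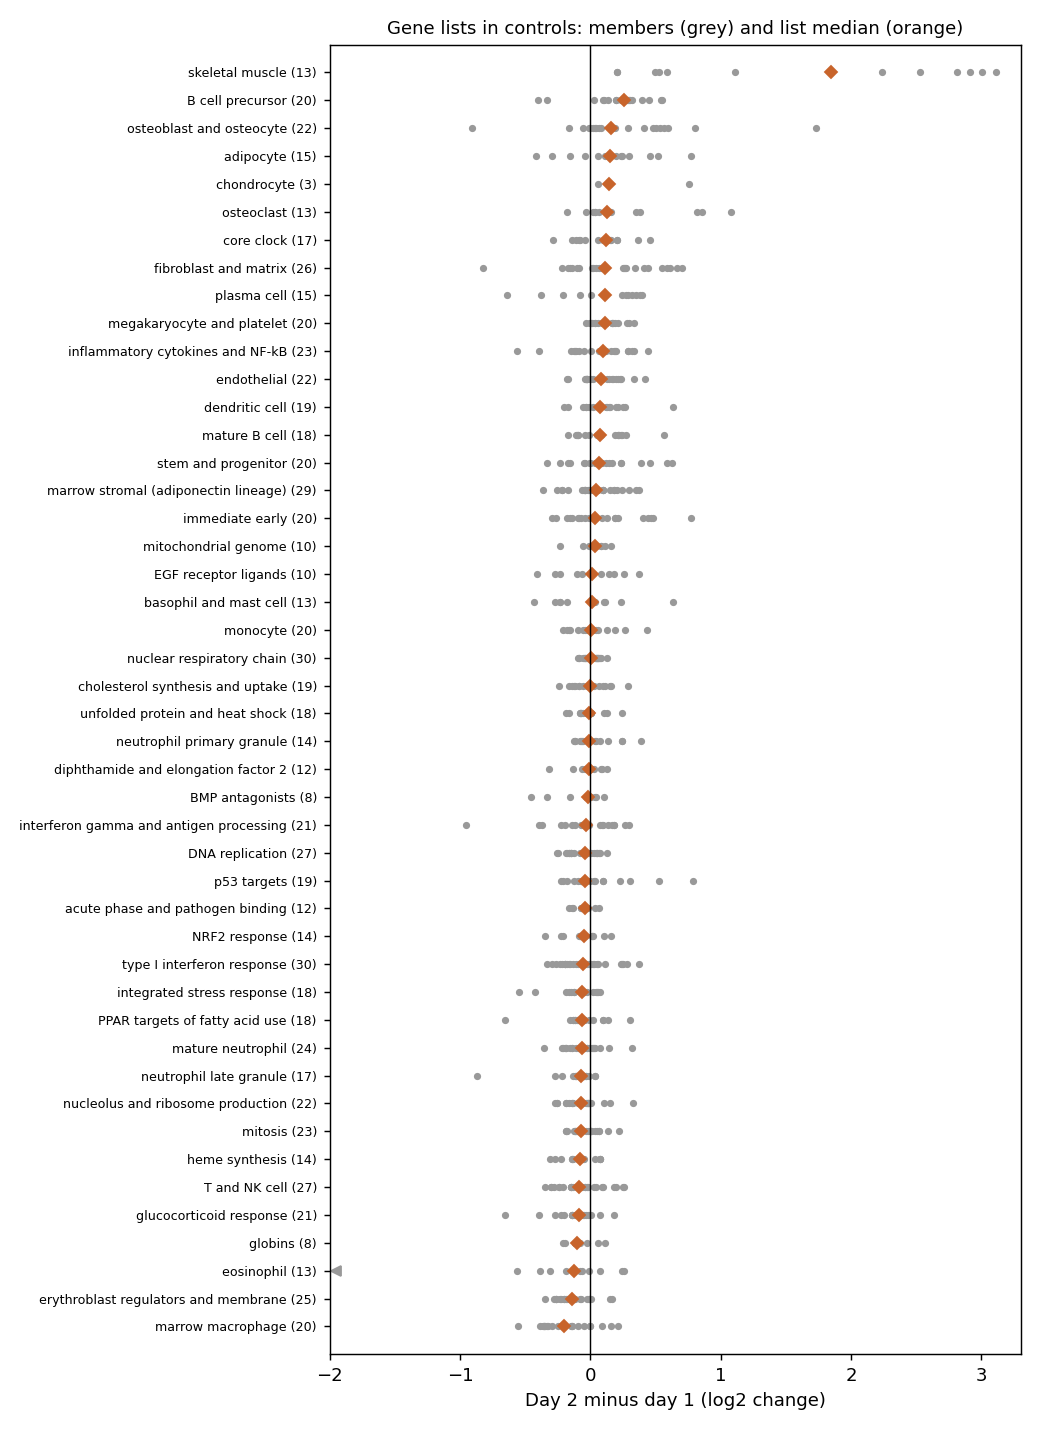
Log2 change from day 1 to day 2 in controls for the members of 46 gene lists (grey points) and the median of each list (orange), with the number of members tested in brackets and a triangle for Ear10 of the eosinophil list, which lies beyond the axis. All medians but that of skeletal muscle (1.85) lie within 0.3 of 0.

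Red cell precursor genes lay slightly below 0 in most members. Of 25 erythroblast regulators and membrane genes, 22 had a log2 change below 0 and 0 passed, with a median of −0.14 and all 25 intervals within 2-fold; the median ran from −0.26 to −0.08 when single libraries were left out. Alas2, the enzyme that starts heme synthesis in red cells, lay at 3190, 5269, 5745 and 4746 CPM on day 1 and at 3033, 3520, 4898 and 3818 CPM on day 2. The lowest library of each day was replicate 1 and the groups overlapped, with a log2 change of −0.31 (interval −0.78 to 0.16). Add2, a subunit of the red cell membrane skeleton, had a log2 change of −0.35 (interval −0.79 to 0.09). Of 8 globin genes 0 passed, and their median of −0.10 changed sign when 1 library was left out (up to 0.03). Hba-a1, whose reads can be shared with its near copy Hba-a2 and which is uncertain for that reason, lay between 7899 and 14770 CPM on day 1 and between 8762 and 12270 CPM on day 2.

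Genes of B cell precursors lay above 0 in 18 of 20 members, with a median of 0.26 (0.14 to 0.29 when single libraries were left out), and 0 passed. The day 2 libraries lay wholly above those of day 1 for 4 of the 20, against 1.73% of all genes. Members of a list can vary together, so these are not independent cases. The summed list overlapped between the days, with 1437 to 1725 CPM on day 1 and 1672 to 2460 CPM on day 2, the highest in replicate 4. At an unadjusted p below 0.05 there were 2 members, 1 in each direction. Myb, a transcription factor of progenitors, lay between 75.5 and 98.6 CPM on day 1 and between 96.1 and 111.5 CPM on day 2, a log2 change of 0.27 (SE 0.13, unadjusted p = 0.0433). Erg, a transcription factor of stem cells and endothelium that was also in the stem cell list, lay at 10.9, 8.88, 7.65 and 7.85 CPM and then at 8.29, 6.86, 5.68 and 7.15 CPM. Its groups overlapped, with a log2 change of −0.33 (SE 0.16, unadjusted p = 0.0484). Rag1, which cuts antigen receptor genes for recombination, lay at 13.1, 11.6, 9.25 and 14.6 CPM and then at 15.8, 15.1, 17.1 and 23.1 CPM, with all 4 day 2 values above all day 1 values. Its log2 change was 0.55 (SE 0.28, unadjusted p = 0.0594), and its exons overlap B230118H07Rik on the same strand, so its counts are uncertain to that extent. The mature B cell list had 11 of 18 members above 0, with a median of 0.07 whose sign changed in 2 settings. Its only member at an unadjusted p below 0.05 was Spib, a transcription factor of B cells and plasmacytoid dendritic cells. It lay at 48.4, 46.6, 59.6 and 53.5 CPM on day 1 and at 75.9, 78.8, 57.9 and 95.2 CPM on day 2. Replicate 3 of day 2 overlapped the day 1 range, and the log2 change was 0.56 (SE 0.26, unadjusted p = 0.0395). The highest value of Spib and of Rag1 was in replicate 4 of day 2.

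Marrow macrophage genes had the lowest list median, −0.20 (−0.36 to −0.09 when single libraries were left out), with 17 of 20 members below 0, 0 passing and 1 at an unadjusted p below 0.05. Cd163, the scavenger receptor for hemoglobin bound to haptoglobin, lay at 23.1, 30.8, 31.8 and 37.6 CPM on day 1 and at 17.6, 16.8, 27.4 and 22.4 CPM on day 2. Replicate 1 of day 1 was below replicate 3 of day 2, and the log2 change was −0.55 (SE 0.22, unadjusted p = 0.0183, quasi-likelihood adjusted p = 1). Mertk, a receptor for dying cells, had a log2 change of −0.39 (interval −0.79 to 0.02). All 20 megakaryocyte and platelet genes had intervals within 2-fold and 0 passed. Their median of 0.11 changed sign in 2 settings, with a range from −0.12 to 0.35 over the alternatives.

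Genes of granulocytes gave no called change. Of 14 primary granule genes 0 passed (median −0.01), and Elane had a log2 change of 0.04 (interval −0.38 to 0.46). Gfi1, a repressor needed for neutrophil formation that lies in this list, lay at 6.38, 6.38, 5.15 and 6.19 CPM on day 1 and at 6.84, 8.09, 8.27 and 8.40 CPM on day 2. The groups did not overlap, and the log2 change was 0.39 (SE 0.16, unadjusted p = 0.0191). Olfm4, a granule protein of a subset of neutrophils, lay at 103, 101, 32.1 and 37.8 CPM on day 1 and at 40.5, 37.1, 40.4 and 31.6 CPM on day 2. Its log2 change of −0.87 rested on replicates 1 and 2 of day 1 and was 0.03 with replicates 3 and 4 alone.

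The eosinophil list held a similar split. Ear10, an eosinophil ribonuclease gene with close copies and therefore uncertain, lay at 16.1, 9.58, 0.139 and 0.266 CPM on day 1 and at or below 0.290 CPM in all 4 libraries of day 2. Ear-ps2, an Ear pseudogene, followed with 56.8, 32.7, 0.278 and 0.266 CPM and then at most 0.232 CPM. Ccnb1ip1, which regulates a cyclin and also lies on chromosome 14, had 94, 123, 0 and 1 counts on day 1 and 0, 0, 1 and 0 counts on day 2. All 3 were thus high in replicates 1 and 2 of day 1 and near 0 in the other 6 libraries, and each was at least 5 CPM in replicate 1 of the controls without DT. Ccr3, the eotaxin receptor, differed from this pattern, with 61.7, 71.4, 68.2 and 74.1 CPM on day 1 and 37.4, 46.0, 56.8 and 46.5 CPM on day 2. Its groups did not overlap, and its log2 change was −0.56 (SE 0.21, unadjusted p = 0.0136, quasi-likelihood adjusted p = 1).

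Lists that follow handling, stress or the hour of harvest gave 0 called genes. Of the 17 core clock genes 0 had an unadjusted p below 0.05 and 16 intervals lay within 2-fold. The clock output gene Dbp lay at 0.981, 1.21, 1.18 and 1.40 CPM on day 1 and at 1.62, 1.55, 1.55 and 1.84 CPM on day 2. Its groups did not overlap, with a log2 change of 0.46 (interval −0.14 to 1.05). Per1, Per2 and Nr1d1, which repress the clock's activators, had log2 changes of −0.08, −0.11 and 0.12, each with overlapping groups. Of 21 glucocorticoid response genes 0 passed and 0 had an unadjusted p below 0.05. Among them Fkbp5, which curbs the glucocorticoid receptor, had a log2 change of −0.20 (interval −0.81 to 0.41), and Tsc22d3, also known as GILZ, had −0.39 (interval −1.05 to 0.26).

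Interferon, cytokine and stress genes were likewise below the threshold. Of 30 type I interferon response genes 0 passed, 28 intervals lay within 2-fold, and Isg15, the ubiquitin-like protein induced by interferon, had a log2 change of −0.33 (interval −0.76 to 0.10). Irgm2, an interferon-induced GTPase, lay at 78.9, 85.2, 31.4 and 33.1 CPM on day 1 and at 33.8, 36.8, 21.2 and 26.2 CPM on day 2. Replicates 1 and 2 were the higher ones on both days, and the exons of this gene overlap Igtp on the same strand. Of 23 inflammatory cytokine and NF-kB genes 0 passed; Il1b, interleukin 1 beta, lay between 18.3 and 49.0 CPM on day 1 and between 15.9 and 47.7 CPM on day 2, and Ccl2, a chemokine that draws monocytes, was at most 4.52 CPM with an interval from −1.22 to 0.97. Of 18 integrated stress response genes, of 18 genes of unfolded protein and heat shock and of 19 p53 targets, 0 passed. Asns, the asparagine synthetase induced by amino acid stress, had the log2 change −0.43 (interval −0.92 to 0.07) and Cdkn1a, the p53 target p21, −0.22 (interval −0.59 to 0.15). All 23 mitosis genes and all 27 DNA replication genes had intervals within 2-fold, and Mki67, a marker of dividing cells, had a log2 change of 0.05 (interval −0.31 to 0.42).

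No bone or matrix gene passed. At an unadjusted p below 0.05 there were 2 of 13 osteoclast genes, both higher on day 2, 3 of 26 fibroblast and matrix genes, with Col3a1 and Col6a1 higher and Thbs2 lower, and 0 of 22 osteoblast genes, against 2.29% of all genes. Tcirg1, a subunit of the proton pump that dissolves bone mineral, lay at 38.3, 38.2, 51.1 and 37.6 CPM on day 1 and at 62.5, 61.5, 45.1 and 45.9 CPM on day 2. The log2 change was 0.38 (SE 0.15, unadjusted p = 0.0135), with 0.69 in replicates 1 and 2 alone and 0.03 in replicates 3 and 4 alone. Ctsk, cathepsin K, lay at 9.32, 10.8, 15.3 and 14.0 CPM and then at 13.1, 33.7, 15.4 and 27.5 CPM. Its values in replicates 2 and 4 of day 2 stood above the other 6 libraries. Col3a1, a fibrillar collagen chain of soft tissue, was at most 2.64 CPM on day 1 and at least 2.96 CPM on day 2, with 4.46 CPM in replicate 2 of day 2 (log2 change 0.71, SE 0.33, unadjusted p = 0.0403). That library also had the highest summed level of skeletal muscle genes, given next. With the muscle list as a covariate the log2 change of Col3a1 was 0.39, against 0.71 without it, and that of Ctsk 0.44, against 0.86. The covariate was the mean log2 CPM of the list in each library. All 13 muscle genes tested had a log2 change above 0 between the days, so this fit cannot cleanly separate muscle from day. Whether muscle tissue adds to the level of these genes was not tested.

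Skeletal muscle genes, markers of the tissue next to the bone, had the highest list median, mostly through replicate 2 of day 2. The summed level of the list ran from 47.0 to 54.1 CPM on day 1 and lay at 58.7, 191.4, 56.7 and 56.3 CPM on day 2. All 4 day 2 sums lay above all day 1 sums, for an exact permutation p of 0.0286, the smallest that 4 against 4 allow, and 0.114 adjusted over the 4 measures. All 13 muscle genes tested lay above 0 (median 1.85), 6 had an unadjusted p below 0.05, and 0 passed. Acta1, skeletal muscle actin (ENSMUSG00000031972), lay at 3.98, 0.638, 1.11 and 0.932 CPM on day 1 and at 2.78, 45.9, 3.68 and 2.23 CPM on day 2. Its log2 change was 3.00 (SE 1.17, unadjusted p = 0.015) and 0.77 without replicate 2 of day 2. Ckm, muscle creatine kinase, had a log2 change of 2.81 with that library and 0.95 without it, and the list median went from 1.85 to 0.70. Mybpc2, a myosin-binding protein of fast muscle, had 0.93 without it against 1.11 with it. With the muscle list as a covariate, 0 genes passed between the days and 329 had an unadjusted p below 0.05.

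Since no gene passed, the genes with the smallest p-values among those with non-overlapping groups and a mean log2 CPM from 1 upward are given as values. Among the 11355 genes at that level 325 had non-overlapping groups, 186 higher and 139 lower on day 2. This share is close to the 2.9% over all genes tested, so membership in this set is no evidence of a change. Vcpkmt, a lysine methyltransferase of the chaperone VCP (ENSMUSG00000049882), lay at 1.66, 2.17, 2.57 and 2.26 CPM on day 1 and at 3.54, 3.62, 3.42 and 3.61 CPM on day 2. The 4 day 2 libraries were close together and above day 1, with a log2 change of 0.71 (SE 0.21, unadjusted p = 0.00226, quasi-likelihood adjusted p = 1). Neat1, the noncoding scaffold of paraspeckles (ENSMUSG00000092274, chromosome 19, 5824708 to 5845478), lay at 103.9, 94.0, 97.8 and 95.8 CPM on day 1 and at 159, 133, 126 and 118.5 CPM on day 2. It was the most abundant of those named here, with a log2 change of 0.46 (SE 0.16, unadjusted p = 0.00669). Slc12a3, a sodium chloride cotransporter, lay between 5.86 and 8.52 CPM and then between 10.5 and 18.5 CPM (log2 change 0.92, SE 0.32). The methylated DNA binder Zbtb33 and the telomere protein Tinf2 had log2 changes of 0.68 (SE 0.22) and 0.34 (SE 0.12). Vps51 and Neat1 overlap exons of other genes on the same strand and Zbtb33 on the other strand, so their counts are uncertain to that extent. Overlaps on the other strand also touch Alas2, Gfi1, Myb, Dbp, Nr1d1, Il1b, Ckm, Tnc and Tagln.

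On the lower side, Thbs2, the matrix protein thrombospondin 2 (ENSMUSG00000023885, chromosome 17, 14665500 to 14694262), lay at 2.76, 2.62, 2.99 and 2.46 CPM on day 1 and at 1.86, 1.23, 1.29 and 1.71 CPM on day 2. These levels rest on 37 to 45 counts per library on day 1 and 19 to 32 on day 2, and the log2 change was −0.83 (SE 0.27, unadjusted p = 0.00505, quasi-likelihood adjusted p = 1). Slc7a8, an amino acid transporter, lay at 10.1, 15.8, 14.1 and 10.4 CPM and then at 7.59, 7.70, 8.65 and 7.48 CPM (log2 change −0.68, SE 0.23). Tlr7, the endosomal receptor for single-stranded RNA, lay between 11.5 and 16.6 CPM on day 1 and between 9.39 and 11.4 CPM on day 2, a log2 change of −0.46 (SE 0.16). Lpin1, a phosphatidate phosphatase, lay between 20.9 and 22.8 CPM and then between 15.3 and 17.7 CPM (log2 change −0.42, SE 0.16). Neu3, a sialidase of gangliosides, and Adgrg6, an adhesion receptor, had log2 changes of −0.72 (SE 0.25) and −0.68 (SE 0.25). None of the 89 genes examined singly passed under any of the 18 alternatives.

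**Figure D4:**
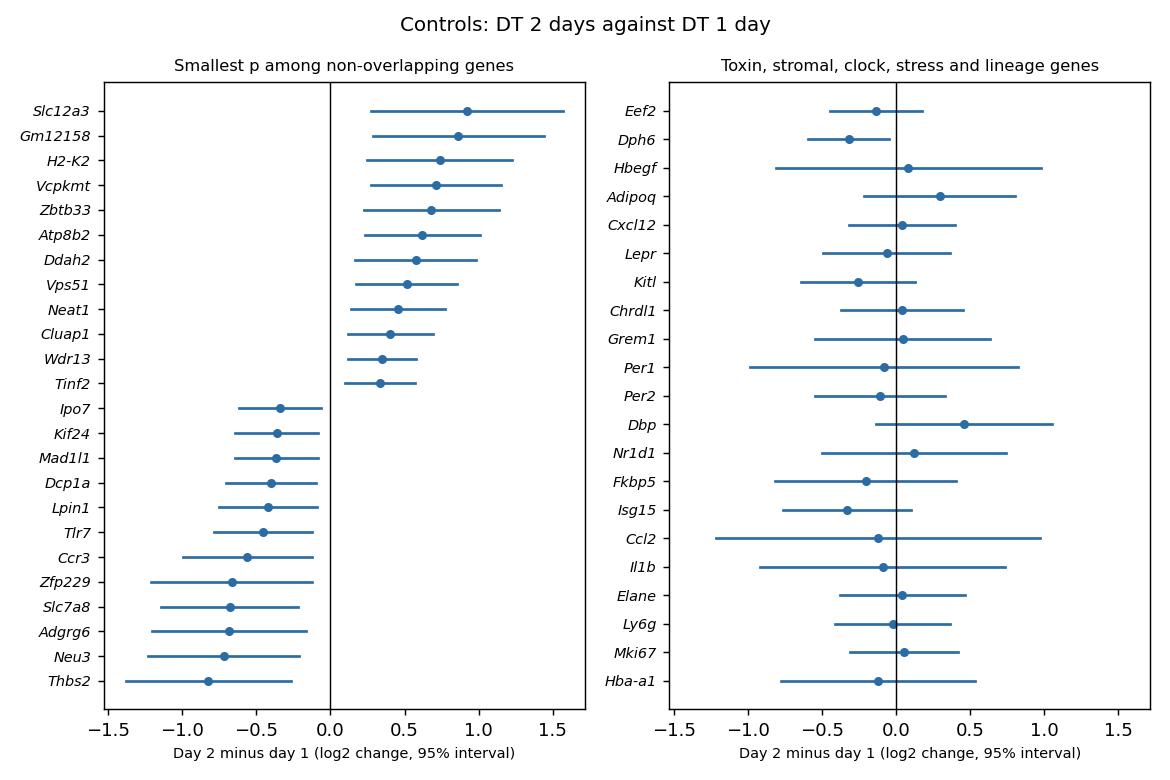
Log2 change from day 1 to day 2 in controls with its 95% interval, not adjusted for the number of genes. Left, the 24 genes with the smallest p-values among those with non-overlapping groups, whose intervals exclude 0 by the way they were chosen; right, genes of the toxin's path, the stroma, the clock, stress and blood lineages, where the interval of Dph6 alone excludes 0.

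The same step was taken in DTRADQ mice, in whose marrow Adipoq lay at or below 1.07 CPM on both days. There 114 of 14527 genes passed (0.785%), 59 higher and 55 lower on day 2. This count varied widely with the fit, from 0 with the compared groups alone to 951 with voom, and from 9 to 471 when single DTRADQ libraries were left out. The median size of the log2 change of the 114 genes was 1.00 in DTRADQ and 0.14 in controls, against 0.12 in controls over all genes. Of the 114, 77 had the same sign in controls and 1 had an unadjusted p below 0.05 there. The share of all genes with the same sign was not counted. Over all genes tested, the log2 changes of the genotypes correlated with a Pearson r of 0.10 and a Spearman rho of 0.15. The test of the difference between the steps called 0 genes (0%), with 746 at an unadjusted p below 0.05 (5.14%) and a smallest adjusted p of 0.113. It called 12 genes with DESeq2, 2 without the filter on low counts, and 38 without replicate 1 of DTRADQ day 2. A call of a difference between the genotypes thus depended on the tool and on that library.

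Tnc, the matrix protein tenascin C (ENSMUSG00000028364), had the smallest adjusted p of the step in DTRADQ. In controls it lay at 30.04, 25.7, 37.2 and 31.5 CPM on day 1 and at 32.8, 33.4, 32.8 and 33.1 CPM on day 2, a log2 change of 0.09 (interval −0.20 to 0.37). In DTRADQ it lay at 14.0, 14.0, 17.2 and 13.9 CPM and then at 22.0, 35.9, 35.5 and 34.4 CPM, a rise of 1.11 on the log2 scale (SE 0.15, quasi-likelihood adjusted p = 0.000169). The difference of the steps was 1.03 (SE 0.20), with a quasi-likelihood adjusted p of 0.113, and 0.00952 with DESeq2. Tagln, a smooth muscle actin-binding protein, lay between 0.674 and 1.77 CPM in controls and between 5.53 and 8.83 CPM in DTRADQ on day 1 and between 9.89 and 32.7 CPM on day 2, a rise of 1.68 on the log2 scale (quasi-likelihood adjusted p = 0.000929). The difference of the steps was 1.42 (SE 0.44, quasi-likelihood adjusted p = 0.63). Egr1, an immediate early transcription factor, lay between 2.02 and 4.08 CPM in controls on both days, and fell in DTRADQ from 20.7 to 48.3 CPM on day 1 to 20.8, 2.97, 4.49 and 3.72 CPM on day 2. Replicate 1 of DTRADQ day 2 was thus within the day 1 range for Egr1, whose call (log2 change −1.84, quasi-likelihood adjusted p = 0.0335) was lost in 6 of 8 fits that left out a DTRADQ library. With the compared groups alone the adjusted p of Tnc was 0.0932, that of Tagln 0.104 and that of Egr1 0.141. Thbs2 was taken up here for its low value in controls, which enters the difference and is no independent support for it. It had log2 changes of −0.83 in controls and 1.14 in DTRADQ, and neither passed (quasi-likelihood adjusted p = 1 and 0.0627). The DTRADQ value was 0.80 without replicate 3 of DTRADQ day 2 (adjusted p = 0.432) and 1.37 without replicate 1 of that group (adjusted p = 0.00534). The difference of 1.97 (SE 0.40) had a quasi-likelihood adjusted p of 0.115, and 0.0195 with DESeq2.

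**Figure D5:**
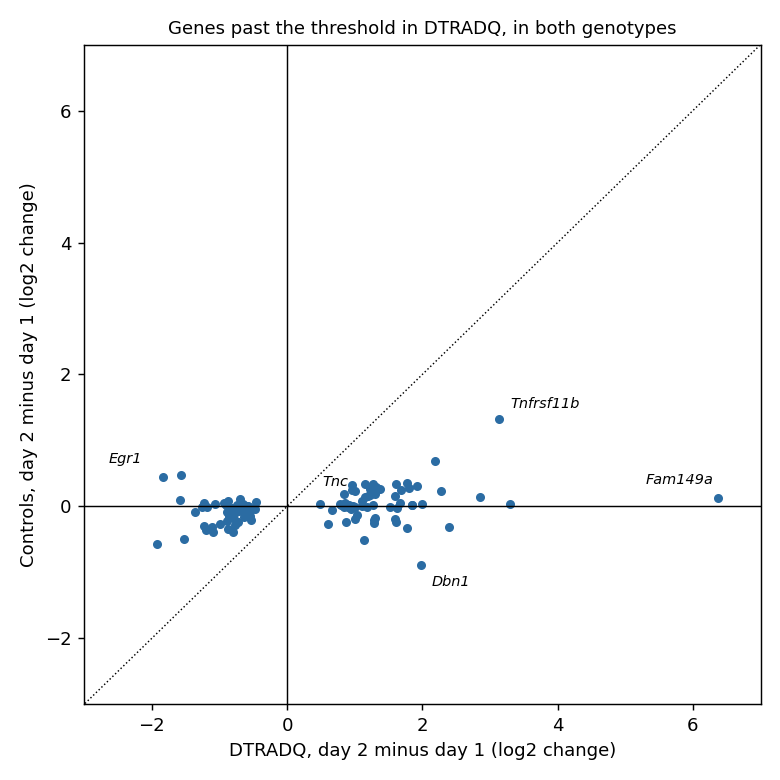
Log2 change from day 1 to day 2 in controls against that in DTRADQ for the 114 genes past the threshold in DTRADQ, with a dotted line where both are equal. The points were chosen by their DTRADQ value and lie near 0 on the control axis (median size 0.14).

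Each control group was also set against the controls without DT, comparisons that share libraries with each other and with the one above. Day 1 against no DT gave 4859 genes past the threshold (33.4%), 2329 higher and 2530 lower, and day 2 gave 4109 (28.3%), 2010 higher and 2099 lower. Replicates 3 and 4 of the controls without DT stood apart, with 9.49 and 8.97 M counts and 37.4% and 50.7% of counts in their 10 most abundant genes. Without them the counts were 3125 and 2907, and with the compared groups alone 984 and 677. Neat1 and Thbs2 were chosen for their separation between day 1 and day 2, and the same values enter here. Their p-values against no DT are therefore not independent of that choice. Neat1 lay between 48.1 and 95.5 CPM without DT and had log2 changes of 0.56 (SE 0.16, adjusted p = 0.00682) on day 1 and 1.02 (SE 0.16, adjusted p = 1.44e-05) on day 2 against that group. Its day 1 call was lost without those libraries (adjusted p = 0.107) and with the compared groups alone (adjusted p = 0.127). Thbs2 lay between 1.31 and 1.78 CPM without DT, below all 4 day 1 values and within the day 2 range, with log2 changes of 0.92 (SE 0.30, adjusted p = 0.0175) and 0.09 (interval −0.54 to 0.73). The day 1 call of Thbs2 was lost with the compared groups alone (adjusted p = 0.0549), with voom (0.0749) and without replicates 3 and 4 of the untreated group (0.0503).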

How the data were processed

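RNA of femur marrow, total RNA per the labels, went into Clontech SMARTer libraries. Tools and build, from the submitters' processing notes, were bcl2fastq, STAR 2.0.4b, Subread, featureCounts 1.45 and GRCm38; the sources used here do not give the annotation release, the strand setting or the handling of reads with several mapping places. The authors deposited raw counts for each gene beside CPM and RPKM, per the file headers. The deposited CPM and RPKM values followed from the counts and gene lengths (largest differences 4.4e-10 and, relative, 3.8e-14) and were used only for this check. Gene symbols were matched for 97.26% of 41388 genes. Libraries of a group were no copies of each other (at least 13 chi-square units per gene).

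Counts were analysed in R 4.3.3 with edgeR 4.0.16: filterByExpr (minimum count 10) left 14527 genes, TMM scaled the libraries, and a single quasi-likelihood model held all 8 groups of 4, with Benjamini-Hochberg adjustment of the two-sided p-values in each comparison and a threshold of 0.05. The SE is the absolute log2 change over the root of F, and the intervals use the moderated t distribution. Levels are CPM with TMM scaling. Single values per library were compared by two-sided exact permutation tests. The fitting steps were tested on simulated data.

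The groups, the 46 lists and the tests were chosen with earlier results of these data known. Genes were named by rule: the 12 smallest p-values in each direction among genes with non-overlapping groups and a mean log2 CPM of at least 1, since 0 passed; up to 3 members of each list by smallest p; and 21 fixed genes. Not every such gene is printed. Gt(ROSA)26Sor, Igha, Jchain, Ighg2c, Plekhh2, Ear-ps2, Ccnb1ip1, Tnc, Tagln, Fstl1, Postn and Egr1 were chosen after their values were seen. Alternatives were DESeq2 1.42.0, its size factors within edgeR, no low-count filter, the compared groups alone, voom with library weights (limma 3.58.1), a muscle covariate, the replicate number as a block, the fit without replicates 3 and 4 of the controls without DT, and leaving out each library. The fits with replicates 1 and 2 or 3 and 4 alone, and the list medians under each setting, were added after seeing the data.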

Additional observations from a re-analysis of the deposited data

Results flagged for a closer look

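In 186 groups of 4 values examined (each named gene, and each measure per library, on each day), 15 held a library far from its 3 companions. The rule flags about 1 in 20 groups of independent, normally distributed values. Several of these genes were chosen after their values were seen and others vary together, so the 15 cannot be set against that rate. Skeletal muscle genes accounted for several. The summed muscle list reached 191.4 CPM in replicate 2 of day 2 against 56.3 to 58.7 CPM in the others. There Acta1 was at 45.9 CPM against 2.23 to 3.68 and Ckm at 9.96 CPM against 0.525 to 1.10, and Col3a1 was at 4.46 CPM against 2.96 to 3.16. In replicate 1 of day 1 Acta1 was at 3.98 CPM against 0.638 to 1.11 and Ckm at 1.04 CPM against 0.192 to 0.266, while Tagln was low, at 0.674 CPM against 1.25 to 1.28.

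Plekhh2, a membrane-associated protein with PH domains (ENSMUSG00000040852, chromosome 17), had the widest spread of any gene in the 8 libraries, with a within-group SD of 3.7 on the log2 scale. It reached 7783 CPM in replicate 3 of day 2 against 2.56 to 573 CPM in its companions, and 144.6 CPM in replicate 3 of day 1 against 5.17 to 10.8 CPM. A DTRADQ library, replicate 2 of day 1, held 11510 CPM. The fitted log2 change in controls was 5.64, with an unadjusted p of 0.00914 and a quasi-likelihood adjusted p of 1.

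Replicate 3 of day 1 was high for the osteoclast pump subunit Tcirg1 (51.1 CPM against 37.6 to 38.3) and for the secreted glycoprotein Fstl1 (68.9 CPM against 44.8 to 47.8), and low for the repressor Gfi1 (5.15 CPM against 6.19 to 6.38). On day 2, Igfbp5 was high in replicate 1 (104 CPM against 56.9 to 61.4) and Mki67 in replicate 3 (792.5 CPM against 616 to 642). Ccnb1ip1 was at 0.0646 CPM, a single count, in replicate 3 of day 2 against 0 in the others.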

How the results depend on the processing

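The control step from day 1 to day 2 gave 0 genes past the threshold in all 18 alternatives, with 280 to 457 genes at an unadjusted p below 0.05 when single libraries were left out and a smallest adjusted p of 0.0565 without the filter on low counts (28075 genes). None of the 89 named genes passed; 25 of them changed sign under some alternative, 17 when the fits of replicates 1 and 2 or 3 and 4 alone are set aside. The largest of the 25 in size was Olfm4 (log2 change −0.87), which changed sign only with replicates 3 and 4 alone, and a gene that never passes carries no direction here. The DTRADQ step gave 114 genes, 306 with DESeq2, 0 with the compared groups alone (2333 at an unadjusted p below 0.05), 951 with voom, 485 without replicates 3 and 4 of the controls without DT, and 9 to 471 when single libraries were left out. Of these, leaving out replicate 1 of day 2 gave 471, and leaving out any other DTRADQ library gave 9 (replicate 2 of day 2) to 43 (replicate 2 of day 1). The difference of the steps gave 0, 12 with DESeq2, 2 without the filter, and 0 to 38 when single libraries were left out. Day 1 and day 2 against no DT gave 984 and 677 genes with the compared groups alone, and day 1 gave 3125 without replicates 3 and 4 of the controls without DT. The cause of these shifts was not tested. Same-numbered libraries of day 1 and day 2 correlated in their deviations with r of 0.27, 0.15, 0.17 and 0.088. Replicate 4 of day 1 correlated best with replicate 3 of day 2, so the numbers were not taken to pair the mice. Pairs within replicates 1 and 2 or within 3 and 4 all had a positive r (0.013 to 0.27). Pairs across these sets all had a negative r (−0.25 to −0.0059), and the main model holds no term for this split. With the replicate block the counts were 0, 129, 0, 5105 and 4349 for the control step, the DTRADQ step, their difference, and days 1 and 2 against no DT. Depth limits low genes most: under a mean log2 CPM of 1, 30.5% of intervals lay within 2-fold.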
